A study of Mus musculus with 14 samples.

Results

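The genes of cholesterol and fatty acid synthesis, 37 in all, were followed in cultured mouse astrocytes. The cells lacked a working gene for the gap junction protein connexin43 (Cx43), were transfected with an siRNA construct against it, or were wild type. The genes were listed by name, in 5 roles: 16 enzymes of the sterol pathway, 5 regulators of the sterol-responsive transcription factors SREBP, 9 genes of fatty acid synthesis, 4 acyl-CoA synthetases and 3 genes of lipid export. Of the 13661 genes named on the array (33600 probes), 33 of the 37 had at least 1 probe with that gene as its sole symbol, 43 probes in all. Hmgcs1, Acat2, Scap and Acsl1 were not analysed here. Each gene was represented by its best-measured probe; 32 genes could be tested and 28 had a value in every sample used. Acly had values in 4 samples only and was not tested.

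The cells were cortical astrocyte cultures from newborn mice, per the titles, although the protocol in the labels describes dissection of whole brain; the strain and the allele of the null mice were not given in the sources used here. Group 1 was wild type, group 2 lacked a working Cx43 gene (called null), and group 3 was wild-type cultures transfected at confluency with 20 ug of an siRNA construct against Cx43, taken after 36 h per the design text, with protein taken at 48 h per the protocol. No group in the labels is described as mock transfected. All cultures grew in medium with fetal bovine serum, which brings sterols and fatty acids. The title asks how null and knockdown transcriptomes compare, so the comparisons set null and siRNA cultures each against wild type, and then against each other. Used here were 3 of the 6 wild-type samples (replicates 3, 4 and 6), 4 null samples and 4 siRNA samples.

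Cholesterol is built from acetyl-CoA through mevalonate, isoprenoid diphosphates and squalene to lanosterol, which a chain of demethylases, reductases and isomerases turns into cholesterol. When sterol in the endoplasmic reticulum falls, the SREBP proteins leave their INSIG anchors, are cleaved and switch on the genes of this pathway and of fatty acid synthesis. In the brain, astrocytes make much of the cholesterol and pass it to neurons on lipoproteins loaded by ABC transporters such as ABCA1.

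The promoters of 5 members are shown because 4 of these genes (Abca1, Insig1, Sc5d and Hsd17b7) were called in a comparison of groups over all 11 samples, and the other, Mvk, was called in the test of whether the gap between null and siRNA differed between the replicate sets. The sequences are the 250 bases before the annotated start, 5′ to 3′ on the strand of the gene, from RefSeq on GRCm38.p6, with 3 motifs in capitals where present. The motifs searched on both strands were the sterol response element TCACNCCAC, the NF-Y box, whose letters are CCAAT on 1 strand and their reverse complement on the other, and the palindromic E-box, whose letters are CACGTG. Abca1 lies at chr4:53159896-53160145 (minus strand), Insig1 at chr5:28071162-28071411 (plus strand), Sc5d at chr9:42264301-42264550 (minus strand), Hsd17b7 at chr1:169969206-169969455 (minus strand) and Mvk at chr5:114444019-114444268 (plus strand).
Abca1: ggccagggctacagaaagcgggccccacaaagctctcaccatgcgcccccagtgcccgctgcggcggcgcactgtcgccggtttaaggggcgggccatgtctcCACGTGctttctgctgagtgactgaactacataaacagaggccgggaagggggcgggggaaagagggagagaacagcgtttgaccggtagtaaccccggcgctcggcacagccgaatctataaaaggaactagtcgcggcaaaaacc
Insig1: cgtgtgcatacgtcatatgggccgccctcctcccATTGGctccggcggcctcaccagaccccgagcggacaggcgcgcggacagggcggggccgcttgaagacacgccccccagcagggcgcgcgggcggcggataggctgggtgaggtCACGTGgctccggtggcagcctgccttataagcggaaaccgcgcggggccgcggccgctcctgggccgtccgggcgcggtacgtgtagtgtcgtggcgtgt
Sc5d: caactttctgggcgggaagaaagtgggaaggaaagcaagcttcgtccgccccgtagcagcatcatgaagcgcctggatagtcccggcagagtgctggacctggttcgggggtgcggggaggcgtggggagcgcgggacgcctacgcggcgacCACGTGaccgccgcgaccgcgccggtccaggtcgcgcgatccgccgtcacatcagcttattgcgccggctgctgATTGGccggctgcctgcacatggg
Hsd17b7: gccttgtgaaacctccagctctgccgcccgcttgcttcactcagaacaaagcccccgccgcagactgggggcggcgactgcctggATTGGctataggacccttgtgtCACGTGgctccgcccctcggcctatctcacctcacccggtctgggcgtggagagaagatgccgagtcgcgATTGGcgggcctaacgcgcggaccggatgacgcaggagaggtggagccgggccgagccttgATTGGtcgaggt
Mvk: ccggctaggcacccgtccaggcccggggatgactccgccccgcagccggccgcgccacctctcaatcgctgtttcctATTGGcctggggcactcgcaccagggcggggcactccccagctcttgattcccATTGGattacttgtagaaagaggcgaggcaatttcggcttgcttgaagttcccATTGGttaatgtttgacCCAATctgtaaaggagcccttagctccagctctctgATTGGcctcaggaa

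Among 32851 promoters of this length the NF-Y box was present in 33.8%, the E-box in 6.02% and the sterol element in 1.05%. Of the 41 promoters of the 30 members with an entry, 24 held the NF-Y box (22 genes), 7 the E-box and 2 the sterol element (Acsl1 and Hmgcs1). Mvk carried 5 NF-Y boxes, between 173 and 10 bases before the start, and Hsd17b7 carried 3 with an E-box at 143 to 138 bases. Insig1 and Sc5d each had 1 NF-Y box and 1 E-box, and Abca1 had 1 E-box only, 147 to 142 bases before the start. The matches in these 5 promoters did not overlap one another. A match describes the letters in this window and is not evidence of binding.

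Each value is a log2 number whose 0 is the median probe of its sample, so it orders samples for 1 probe but does not rank different genes. Values were present for 53.1% to 79.8% of the 33600 probes per sample. Across probes, the 11 samples used correlated with the mean of the others at r = 0.89 to 0.95, while wild-type replicates 1, 2 and 5 stood apart at r = 0.33, 0.34 and -0.08. Replicates 1 and 2 resembled each other closely (r = 0.991 in null and 0.988 in siRNA) and differed from replicates 3 and 4, and wild type had only replicates 3 and above to use. The fit therefore carried a term for replicate set beside dye and group. Consecutive samples carry opposite dyes and may share an array or a culture, which the labels do not say, and the p-values reflect the spread among these samples alone, part of which may be technical. Gja1, the Cx43 gene, had values of 6.08, 7.53 and 4.82 in wild type, -1.17, -1.06, 2.82 and 3.03 in null, and 1.93, 2.14, 5.47 and 5.70 in siRNA. It fell by 3.31 in null against wild type (adjusted p = 0.0408, limma) and lay at -0.41 in siRNA against wild type (adjusted p = 0.732), where siRNA replicates 3 and 4 lay within the wild-type range. Of 12 astrocyte markers, 7 were measured in all 11 samples and Aqp4, Aldh1l1, Sox9 and Glul stood above the median probe in every one; Slc1a2, Slc1a3, Gfap and S100b lacked a value in some samples. Of 15 microglial markers, 11 were measured throughout and 8 stood above the median probe in every sample.

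Few of the 32 tested genes differed between groups, by limma's moderated test with Benjamini-Hochberg adjustment over all probes. In null against wild type 1 gene rose and none fell (Abca1), where 0.585% of all probes were called (0.467% higher, 0.118% lower). In siRNA against wild type 3 rose and none fell (Abca1, Sc5d and Insig1), where 7.37% were called (5.42% higher, 1.95% lower). In null against siRNA 1 was higher in null (Hsd17b7), where 5.87% were called (3.60% higher, 2.27% lower). The null and siRNA comparisons used the same 3 wild-type samples, and in bulk samples a change in the number of cells of a type cannot be told apart from a change in RNA per cell. When consecutive replicates were treated as a random block (array pairs), which gave a consensus correlation of 0.467, no member was called in any of the 3 comparisons, against 0.00492%, 1.00% and 0.521% of all probes. Taking unadjusted p below 0.05 and a fold of 1.5 or more, 10, 6 and 8 of the 32 members passed. Of all probes, 3464 of 20341, 4752 of 20324 and 5043 of 20347 had an unadjusted p below 0.05.

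The list as a whole lay slightly above the median probe against wild type. Its median log2 difference was 0.53 in null against wild type (27 of 32 above 0) where that of all probes was 0.27 (65.5% above 0), and 0.39 in siRNA against wild type (19 of 32) where that of all probes was 0.13 (56.6%). Without the set term the list medians were -0.06 and -0.19, with 14 of 32 above 0 in both, beside -0.06 and -0.22 for all probes. In replicates 3 and above alone they were 0.51 and 0.35, beside 0.33 and 0.06 for all probes. Leaving out wild-type replicate 3 alone gave list medians of 0.64 and 0.46, beside 0.56 and 0.43 for all probes. Both the sign and the gap to the median probe thus changed when the set term was left out, and the gap also narrowed without that 1 wild-type sample. Between null and siRNA the list median was 0.11 (18 of 32 above 0), the same as that of all probes.

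**Figure D1:**
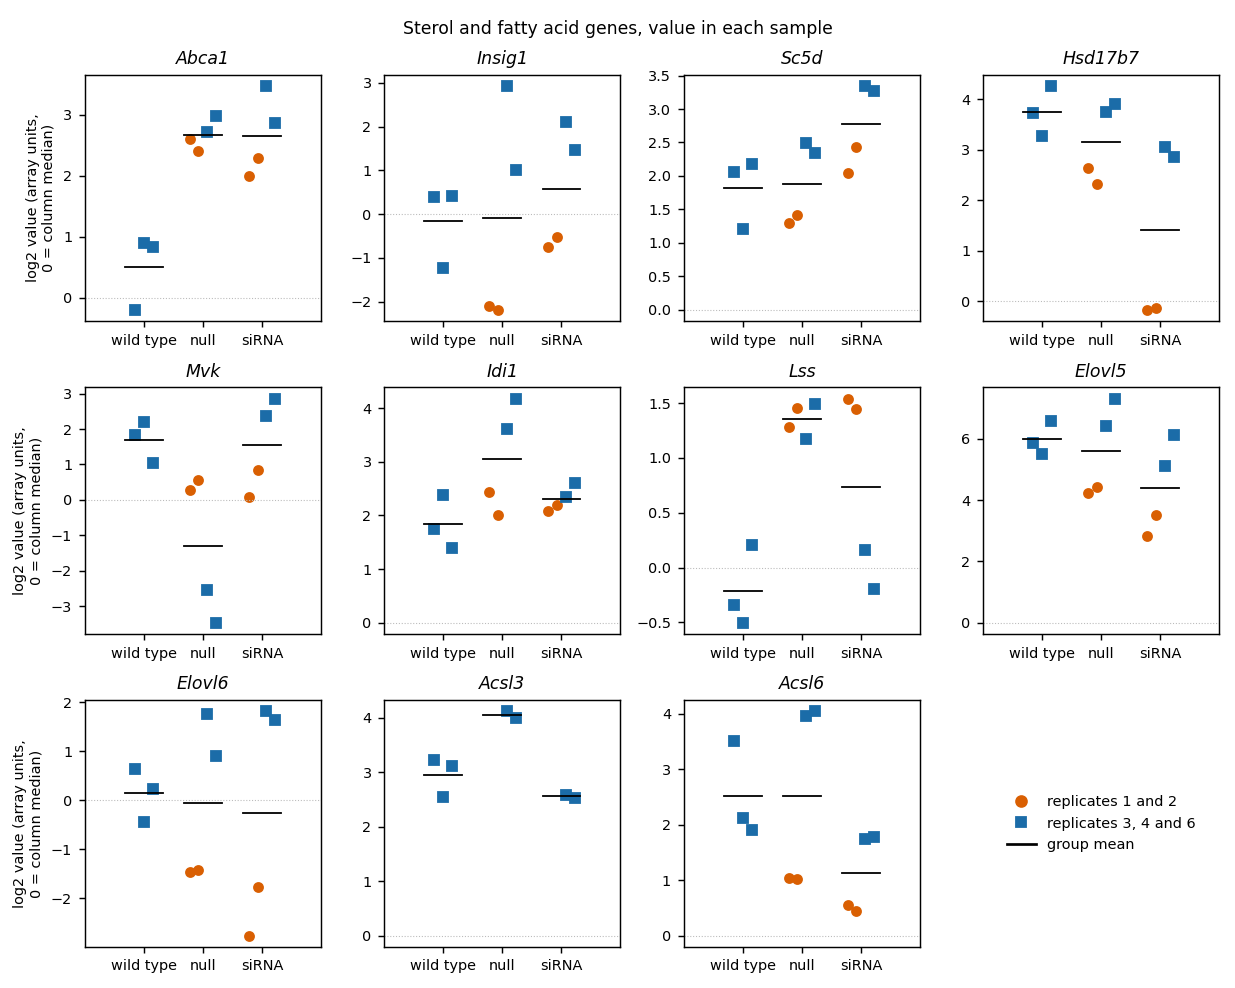
Log2 value (y axis, 0 is the median probe of the sample) of 11 genes in each sample of the wild-type, null and siRNA groups (x axis); circles are replicates 1 and 2, squares replicates 3, 4 and 6, and bars the group means. Abca1 lies above every wild-type sample in all 8 null and siRNA samples, and Mvk drops to -2.54 and -3.47 in null replicates 3 and 4.

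Among the sterol enzymes, 14 of 16 were tested; 1 rose in siRNA against wild type, none changed in null against wild type, and 1 was higher in null than in siRNA. Mvk, mevalonate kinase, which adds the first phosphate to mevalonate, read 1.84, 2.21 and 1.04 in wild type, 0.27, 0.57, -2.54 and -3.47 in null, and 0.09, 0.85, 2.37 and 2.86 in siRNA. All 4 null samples lay below all 3 wild-type samples, and null replicates 3 and 4 lay far below replicates 1 and 2. The fitted difference was -3.30 ± 1.06 (SE) against wild type (adjusted p = 0.14) and -2.83 ± 0.88 against siRNA (adjusted p = 0.0781), both short of the threshold. In replicates 3 and above alone, where 4.58% of all probes were called between null and wild type and 9.88% between null and siRNA, Mvk fell by 4.74 against wild type (adjusted p = 0.000145) and by 5.62 against siRNA (adjusted p = 1.84e-05). Null and siRNA enter that fit, here and below, with replicates 3 and 4 alone, a consecutive pair that may share an array or a culture. With array pairs as a random block over all 11 samples, the adjusted p for Mvk was 0.395 against wild type and 0.229 against siRNA.

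Idi1, which interconverts the isoprenoid diphosphate building blocks, read 1.75, 2.37 and 1.38 in wild type, 2.43, 2.01, 3.60 and 4.18 in null, and 2.08, 2.20, 2.34 and 2.60 in siRNA. Null replicates 3 and 4 were the highest samples, and null replicates 1 and 2 overlapped both other groups. The fitted difference of null from wild type was 1.74 ± 0.46 (SE), adjusted p = 0.086. It passed in replicates 3 and above alone, at 2.10 ± 0.49 (SE), adjusted p = 0.0263.

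Lss, lanosterol synthase, which closes the sterol rings, read -0.34, -0.50 and 0.20 in wild type, 1.29, 1.46, 1.18 and 1.49 in null, and 1.54, 1.45, 0.16 and -0.20 in siRNA. The 4 null samples formed a tight group (1.35 ± 0.15, SD, n = 4) above all wild-type samples (-0.21 ± 0.37, SD, n = 3), while siRNA split between the null level in replicates 1 and 2 and the wild-type level in replicates 3 and 4. Because the set term is shared by both groups, the fitted difference of null from wild type was 1.19 ± 0.45 (SE), adjusted p = 0.200.

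Hsd17b7, the reductase that restores the hydroxyl group after sterol demethylation, read 3.73, 3.27 and 4.27 in wild type, 2.63, 2.33, 3.76 and 3.91 in null, and -0.17, -0.12, 3.07 and 2.85 in siRNA. Every siRNA sample lay below every wild-type sample, and siRNA replicates 1 and 2 stood furthest down. It was 1.75 ± 0.41 (SE) higher in null than in siRNA (adjusted p = 0.0288), a gap of 2.63 in replicates 1 and 2 and of 0.87 in replicates 3 and 4. Against wild type, siRNA differed by -1.25 ± 0.49 (adjusted p = 0.145). The call against siRNA was lost with array pairs as a random block (adjusted p = 0.17), with no set term (adjusted p = 0.438), with all 14 columns, in replicates 3 and above alone (adjusted p = 0.309), and when any 1 of null replicates 1, 2 or 4 or siRNA replicates 1, 2 or 4 was left out (adjusted p up to 0.0838).

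Sc5d, the desaturase that puts a double bond into the sterol ring near the end of the pathway, read 2.06, 1.21 and 2.18 in wild type, 1.29, 1.41, 2.49 and 2.34 in null, and 2.04, 2.43, 3.35 and 3.28 in siRNA. Within replicates 3 and above both siRNA samples lay above all wild-type and null samples, while siRNA replicate 1 lay inside the wild-type range. It rose by 1.48 ± 0.39 (SE) in siRNA against wild type (adjusted p = 0.0404) and did not pass in null (0.59 ± 0.39, adjusted p = 0.484). The call was lost with array pairs as a random block (adjusted p = 0.248), with no set term (adjusted p = 0.562), with scale normalization, with all 14 columns, in replicates 3 and above alone (adjusted p = 0.0758), and in 8 of the 11 fits that leave out 1 sample: wild-type replicate 4, any null replicate, and siRNA replicates 2, 3 and 4 (adjusted p up to 0.174).

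The other sterol enzymes did not pass in any of the 3 comparisons. They are Pmvk and Mvd, which follow Mvk on the way to isopentenyl diphosphate; Fdps and Fdft1, which build farnesyl diphosphate and squalene; Sqle, which oxidises squalene; Cyp51 and Nsdhl, which remove methyl groups from lanosterol; and Ebp and Dhcr7, which finish the ring. Sqle and Dhcr7 lay higher in all 4 null samples than in all 4 siRNA samples. Sqle read 5.67, 5.54, 5.72 and 6.28 in null against 4.61, 5.02, 4.38 and 4.98 in siRNA, a fitted gap of 1.05 ± 0.40 (SE), adjusted p = 0.128. Dhcr7, which carries out the final reduction to cholesterol, read -1.0, -0.81, 0.11 and 0.04 in null against -1.44, -1.13, -1.89 and -1.62 in siRNA, a fitted gap of 1.11 ± 0.39 (SE), adjusted p = 0.11. In replicates 3 and above alone Dhcr7 passed, at 1.83 ± 0.54 (SE), adjusted p = 0.043. Both were named after their values were seen, because their groups did not overlap.

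Of the SREBP regulators, Insig1, Insig2, Srebf1 and Srebf2 were tested; 1 rose in siRNA against wild type and none changed in the other comparisons. Insig1, which holds the SREBP complex in the endoplasmic reticulum and is itself a sterol-regulated gene, read 0.38, -1.23 and 0.41 in wild type, -2.11, -2.19, 2.93 and 1.00 in null, and -0.76, -0.53, 2.11 and 1.45 in siRNA. In both null and siRNA, replicates 1 and 2 lay below 0 and replicates 3 and 4 above every wild-type sample, so the plain group means differed little (-0.15 ± 0.94 in wild type, n = 3, and 0.57 ± 1.43 in siRNA, n = 4, SD). With the set term, Insig1 rose by 2.24 ± 0.60 (SE) in siRNA against wild type (adjusted p = 0.0424) and differed by 1.58 ± 0.60 in null (adjusted p = 0.200). With no set term the siRNA difference was 0.61 and was not called, and in replicates 3 and above alone it was 1.75 ± 0.56 (adjusted p = 0.0638). Array pairs as a random block also ended the call (adjusted p = 0.228), as did scale normalization and all 14 columns. It was kept in 2 of 11 fits that leave out 1 sample, those without wild-type replicate 6 and without null replicate 3, and the adjusted p ranged from 0.0257 to 0.136.

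Srebf2, the SREBP that governs sterol genes, differed from wild type by 1.16 ± 0.48 (SE) in null (adjusted p = 0.244) and by 0.79 ± 0.48 in siRNA (adjusted p = 0.362). Srebf1, which favours fatty acid genes, differed by 0.42 ± 0.64 in null (adjusted p = 0.803) and by 1.06 ± 0.64 in siRNA (adjusted p = 0.352). Insig2, the second anchor, lay at 0.10 ± 0.41 and -0.22 ± 0.41. None of these passed.

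**Figure D2:**
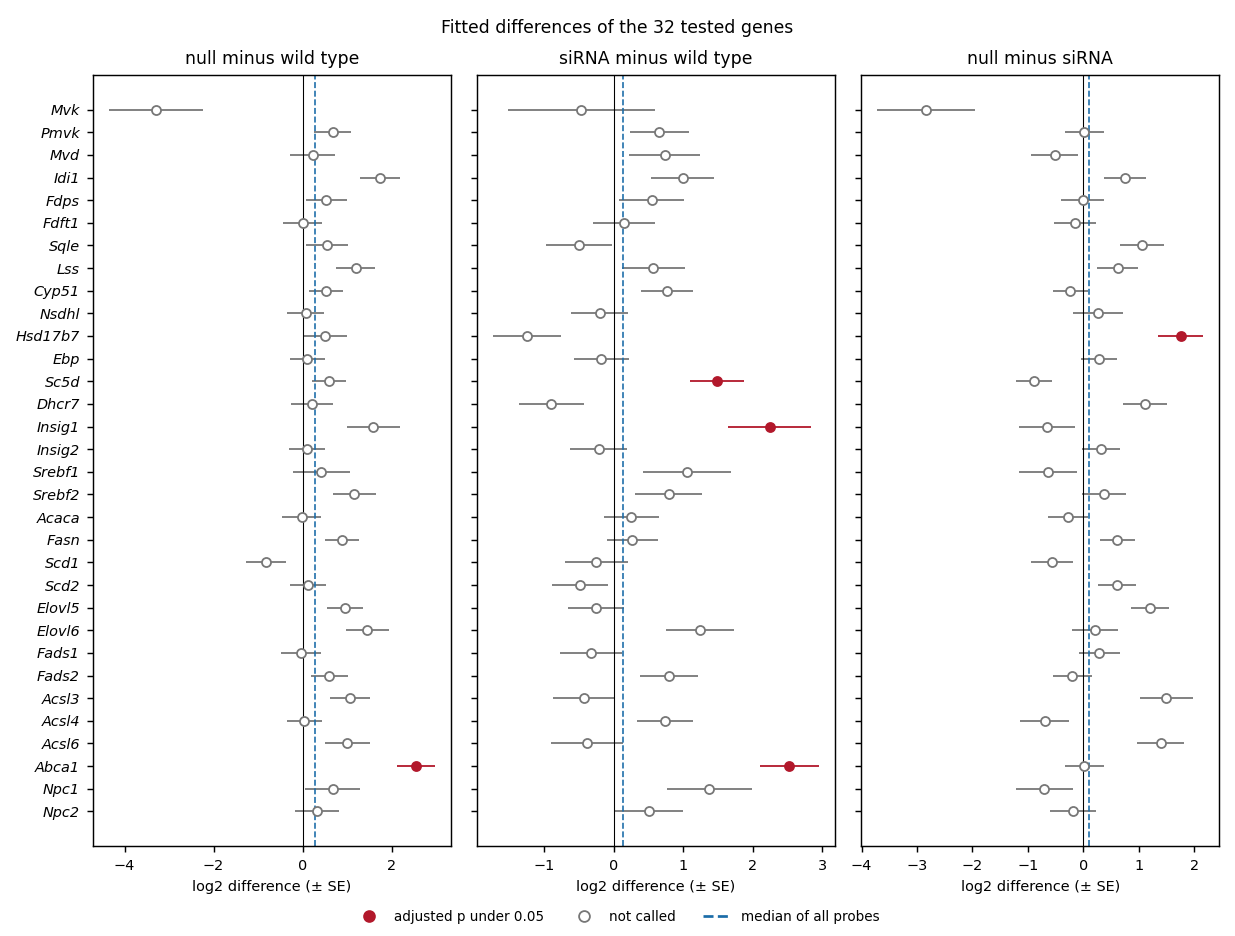
Fitted log2 difference with its standard error (x axis) of the 32 tested genes (y axis) in null minus wild type, siRNA minus wild type and null minus siRNA; filled red points passed at an adjusted p under 0.05, and the dashed line is the median of all probes. Abca1 (2.54 and 2.53), Sc5d (1.48), Insig1 (2.24) and Hsd17b7 (1.75) are the filled points.

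Of the fatty acid synthesis genes, 8 of 9 were tested and none changed in any of the 3 comparisons. The list holds Acly, Acaca and Fasn, which make acetyl-CoA, malonyl-CoA and palmitate; Scd1 and Scd2, the stearoyl-CoA desaturases; Elovl5 and Elovl6, which lengthen acyl chains; and Fads1 and Fads2, which desaturate polyunsaturated chains. Their differences ran from -0.81 to 1.46 in null and from -0.49 to 1.25 in siRNA against wild type. Acly read -0.22 and -0.23 in null replicates 1 and 2 and 0.03 and 0.55 in siRNA replicates 1 and 2.

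Elovl6, the elongase of saturated and monounsaturated chains, read 0.64, -0.45 and 0.24 in wild type, -1.47, -1.43, 1.76 and 0.90 in null, and -2.76, -1.76, 1.81 and 1.63 in siRNA. In both manipulated groups replicates 1 and 2 lay below and replicates 3 and 4 above all wild-type samples. Its difference from wild type was 1.46 ± 0.49 (SE) in null (adjusted p = 0.153) and 1.25 ± 0.49 in siRNA (adjusted p = 0.146); without the set term the values turned to -0.24 and -0.45.

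Elovl5, the elongase of polyunsaturated chains, read 5.87, 5.52 and 6.58 in wild type, 4.22, 4.43, 6.42 and 7.31 in null, and 2.82, 3.51, 5.10 and 6.13 in siRNA. Within each replicate set both null samples lay above both siRNA samples, by 1.16 in replicates 1 and 2 and by 1.25 in replicates 3 and 4. The fitted gap of 1.20 ± 0.34 (SE) had an adjusted p of 0.0578. With the replicate number as a block, under which 1.93%, 9.97% and 11.1% of all probes were called in the 3 comparisons in the order used above, Elovl5 passed (adjusted p = 0.0399), so that 2 members were called between null and siRNA.

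Scd1, which makes oleate from stearate, lay lower in all 4 null samples (3.35, 3.09, 3.95 and 3.93) than in all 3 wild-type samples (5.31, 4.61 and 5.39). The fitted difference was -0.81 ± 0.45 (SE), adjusted p = 0.388. In siRNA, Scd1 read 3.22 and 2.81 in replicates 1 and 2 and 5.38 and 5.19 in replicates 3 and 4, the latter pair at the wild-type level. Scd1 was also named after its values were seen.

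The acyl-CoA synthetases activate fatty acids for membrane lipids, storage or oxidation. Acsl3, Acsl4 and Acsl6 were tested, and with the probes used none changed in the 3 comparisons. A second Acsl6 probe, given below, was called in null against wild type. Acsl6, the form best known from brain, read 3.50, 2.11 and 1.91 in wild type, 1.04, 1.02, 3.97 and 4.04 in null, and 0.54, 0.45, 1.75 and 1.78 in siRNA. With the probe used, all siRNA samples lay below all wild-type samples, which the second probe did not show. Null lay above siRNA within each replicate set. The gap of null over siRNA was 1.39 ± 0.43 (SE), adjusted p = 0.0768, and 2.24 ± 0.56 in replicates 3 and above alone (adjusted p = 0.022). Acsl3, linked to lipid droplets, had values only in replicates 3 and above: 3.23, 2.54 and 3.11 in wild type, 4.12 and 4.00 in null, and 2.59 and 2.54 in siRNA. Both null samples were above all others, with a gap of 1.50 ± 0.48 (SE) over siRNA (adjusted p = 0.0993). Acsl4, which prefers arachidonate, differed from wild type by 0.04 ± 0.40 in null and 0.74 ± 0.40 in siRNA.

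In the lipid export group 1 of 3 genes rose in both comparisons against wild type. Abca1, which loads cholesterol onto apolipoproteins at the cell surface and is a textbook target of the oxysterol receptors, read -0.20, 0.90 and 0.84 in wild type, 2.61, 2.42, 2.71 and 2.98 in null, and 2.00, 2.30, 3.48 and 2.87 in siRNA. All 8 null and siRNA samples lay above all 3 wild-type samples, and null and siRNA overlapped. Abca1 rose by 2.54 ± 0.43 (SE) in null against wild type (adjusted p = 0.0408) and by 2.53 ± 0.43 in siRNA against wild type (adjusted p = 0.00609). These comparisons share the wild-type samples, so they are not independent of each other; null and siRNA differed by 0.02 ± 0.35 (adjusted p = 0.985). In replicates 3 and above alone, where 9.23% of all probes were called between siRNA and wild type, the differences were 2.39 ± 0.51 in null (adjusted p = 0.0164) and 2.71 ± 0.51 in siRNA (adjusted p = 0.00363). The siRNA call held in all 11 fits that leave out 1 sample (adjusted p 0.00699 to 0.0385). The null call held in 3 of them, those without wild-type replicate 6, null replicate 1 or siRNA replicate 2; in the other 8 the adjusted p went up to 0.21. Array pairs as a random block ended both calls (adjusted p = 0.299 and 0.0691), as did leaving out the set term (adjusted p = 0.618 and 0.123), and array weights or all 14 columns ended the null call.

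The rise of Abca1 was seen with 1 of its probes. Of 6 probes, 3 were measured in all 11 samples, and only probe 2966, the one used, was higher in null and siRNA. Probe 14138 read -0.76, -1.32 and -0.17 in wild type, -1.81, -2.04, -1.67 and -1.60 in null, and -2.84, -2.23, -0.64 and -0.93 in siRNA, a difference of -0.52 ± 0.48 (SE) in null and -0.39 ± 0.48 in siRNA (adjusted p = 0.645 and 0.684). Probe 19738 differed by -0.47 ± 0.50 in null and by -1.38 ± 0.50 in siRNA (adjusted p = 0.69 and 0.115). With the mean of all probes of the gene, the Abca1 differences were 0.14 and 0.11 and neither was called. The part of the transcript that each probe matches was not given in the sources used here.

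Other genes with more than 1 probe also gave unequal values. Acsl6 probe 27577, like the probe used, had values in all 11 samples, and the choice between them went to the higher mean. Probe 27577 read 0.14, -0.94 and -1.44 in wild type and -0.17, 0.03, 1.83 and 1.90 in null. In siRNA it read -1.78, -1.02, 0.31 and 0.52, with replicates 3 and 4 above all wild-type samples, unlike the probe used. It was higher in null by 2.57 ± 0.46 (SE), adjusted p = 0.0429. The probe used gave 1.01 ± 0.51 (adjusted p = 0.344). Sc5d probe 19644 differed between siRNA and wild type by 0.49 ± 0.53 (adjusted p = 0.642) where the used probe rose by 1.48. Idi1 probe 27079 gave 1.32 ± 0.50 in null against wild type, near the 1.74 of the used probe.

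**Figure D3:**
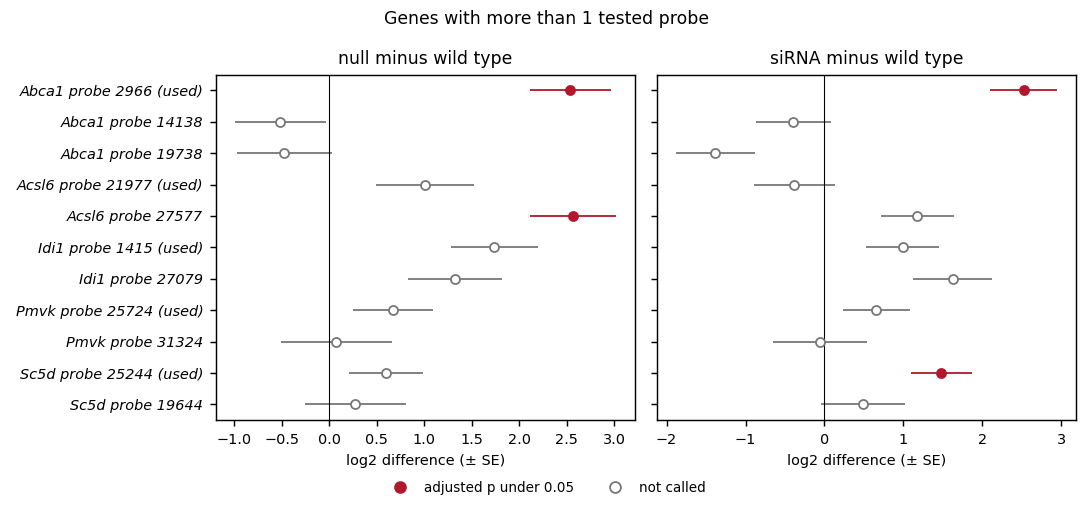
Fitted log2 difference with its standard error (x axis) of each tested probe of the 5 genes with more than 1 (y axis), in null and siRNA against wild type; filled red points passed at an adjusted p under 0.05. Abca1 probe 2966 lies at 2.54 and 2.53 while its other tested probes lie below 0.

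Npc1 and Npc2, which carry cholesterol out of the lysosome, did not pass. Npc1 read 3.12, 2.44 and 4.57 in wild type, 2.58, 2.97, 3.54 and 3.45 in null, and 2.17, 2.80, 5.07 and 5.32 in siRNA. Its siRNA replicates 3 and 4 were the highest samples and its replicates 1 and 2 among the lowest. The difference of siRNA from wild type was 1.38 ± 0.61 (SE), adjusted p = 0.197, and it passed with the replicate number as a block (adjusted p = 0.0484), which gave 4 members called there. Npc2 differed by 0.32 ± 0.49 in null and 0.51 ± 0.49 in siRNA.

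Markers of other cells moved with the siRNA group. Of 12 tested microglial markers, 7 fell in siRNA against wild type (median -2.16) and 6 were higher in null than in siRNA, and their mean level ran from 3.31 to 3.94 in wild type, 2.21 to 4.68 in null and 1.65 to 2.23 in siRNA. None of the 12 passed in null against wild type. Of all probes, 1.95% were called lower in siRNA than in wild type and 3.60% higher in null than in siRNA. Of 9 tested astrocyte markers, 1 rose and 1 fell in siRNA against wild type, and the mean level of those measured throughout ran from 3.44 to 3.99 in wild type, 2.52 to 3.61 in null and 1.47 to 3.66 in siRNA. Those measured throughout include Gja1, the target of both manipulations, whose own fall in null is part of the lower mean there. Of 8 tested fibroblast markers, 2 fell in siRNA against wild type, as did 1 of 6 neuronal, 1 of 3 endothelial and 1 of 4 ependymal markers. None of 8 oligodendrocyte markers was called there. The part of these markers in the results on Sc5d, Insig1, Hsd17b7 and Abca1 was not tested.

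More members were called between the replicate sets than between the groups, and so were more probes of all kinds. From replicates 1 and 2 to replicates 3 and 4, 16 of 31 tested members rose (51.6%), where 39.1% of all probes did. None fell, where 5.62% of all probes did. The share of members called in either direction (51.6%) is near that of all probes (44.7%). This contrast rests on the null and siRNA samples alone. The list median was 1.07 and that of all probes 0.78, and 27 of 31 members had a positive difference where 74.6% of all probes did. The labels do not say what the sets are, so culture, array batch and day cannot be told apart. In null and siRNA, values were present for 53.1% to 59.0% of probes in replicates 1 and 2 and for 71.1% to 79.8% in replicates 3 and 4. The 0 of a sample is the median of its measured probes, so it rests on different probes in each set. The part of this in the set differences was not tested. Under quantile normalization or array weights Lss was also called, as lower in replicates 3 and 4, and with all 14 columns Acaca was called as lower. Under the random block of array pairs 11 members passed, against 27.6% of all probes, and with each pair averaged 5 passed (Insig1, Insig2, Fasn, Elovl5 and Elovl6), against 16.7% of all probes. The members that lost their call under the random block were Sc5d, Srebf1, Fads1, Acsl4 and Npc1. Cell type markers moved with the sets too: 5 of 12 microglial markers fell and none rose (median -1.09), while 5 of 8 astrocyte, 3 of 7 oligodendrocyte, 1 of 5 neuronal, 3 of 6 fibroblast and 2 of 4 ependymal markers rose and none fell, and of 3 endothelial markers 1 rose and 1 fell. The 5 astrocyte markers that rose include Gja1, the target of both manipulations. The part of the markers in the set differences was not tested.

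All 4 tested SREBP regulators rose between the sets, where 39.1% of all probes did. Srebf1 did not pass with the random block of array pairs (adjusted p = 0.0753), and neither Srebf1 nor Srebf2 with pairs averaged (adjusted p = 0.0824 and 0.0517). Insig1 rose by 3.27 ± 0.50 (SE, adjusted p = 0.000261), Insig2 by 2.09 ± 0.34 (adjusted p = 0.000434), Srebf2 by 2.06 ± 0.40 (adjusted p = 0.00144) and Srebf1 by 1.89 ± 0.53 (adjusted p = 0.0122). Insig2 read -0.71 and -0.78 in null replicates 1 and 2 against 1.59 and 1.64 in replicates 3 and 4, and -0.55 and -1.03 against 1.09 and 0.98 in siRNA. Srebf2 read 0.98 and 0.78 against 3.56 and 3.08 in null, and 0.53 and 1.26 against 2.40 and 2.73 in siRNA. In both genes and both groups the sets did not overlap. Wild-type replicates 3, 4 and 6 read 1.60, 0.64 and 1.81 for Insig2 and 2.91, 1.59 and 1.25 for Srebf2.

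Of the fatty acid synthesis genes 5 of 8 rose (62.5%, beside 39.1% of all probes). Of these, Fads1 did not pass with the random block (adjusted p = 0.0826), nor Fads1 and Scd1 with pairs averaged (adjusted p = 0.139 and 0.123). Elovl6 rose by 3.38 ± 0.41 (adjusted p = 4.84e-05), Elovl5 by 2.50 ± 0.34 (adjusted p = 0.000117), Fasn by 2.42 ± 0.31 (adjusted p = 7.52e-05), Scd1 by 1.50 ± 0.38 (adjusted p = 0.00677) and Fads1 by 1.30 ± 0.37 (adjusted p = 0.0131). Fasn, the fatty acid synthase itself, read 1.53 and 1.93 against 3.60 and 4.40 in null, and 0.60 and 1.32 against 3.43 and 3.65 in siRNA. Its wild-type samples read 2.90, 3.84 and 3.11, near those of replicates 3 and 4 of the other groups. Acaca, Scd2 and Fads2 did not pass.

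Sterol enzymes gave 4 of 14 (28.6%, beside 39.1% of all probes): Hsd17b7 (2.23 ± 0.41), Fdps (1.75 ± 0.39), Pmvk (1.47 ± 0.35) and Sc5d (1.07 ± 0.33). Sc5d did not pass with the random block (adjusted p = 0.105), and none of the 4 passed with pairs averaged (adjusted p 0.051 to 0.198). The median of these 14 was 0.64, below the 0.78 of all probes. Pmvk has a second probe with values in all 11 samples, 31324. Its set difference was 0.39 in null and -0.36 in siRNA, where the probe used gave 1.81 and 1.13. Fdps, which condenses isoprenoid units into farnesyl diphosphate, read 2.50 and 1.86 against 5.07 and 4.41 in null and 2.85 and 3.15 against 3.97 and 3.94 in siRNA. Of the rest, Acsl6 rose by 2.12 ± 0.43, Acsl4 by 1.31 ± 0.43 and Npc1 by 1.71 ± 0.51, while Abca1 differed by 0.68 ± 0.35 (adjusted p = 0.139). Acsl4 and Npc1 did not pass with the random block (adjusted p = 0.138 and 0.0564), and Acsl6 did not with pairs averaged (adjusted p = 0.0602). Idi1 had an adjusted p of 0.0503 with its used probe (1.00 ± 0.38), and its second probe rose by 4.56 ± 0.42.

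Taken group by group, 21 of the 28 members with all 8 null and siRNA values were higher in replicates 3 and 4 in both groups (75.0%, where 59.6% of all probes were), 2 were lower in both and 5 went opposite ways. The absolute set difference had a median of 1.07, while the gap between replicates 3 and 4 of a group had a median of 0.31. Lss and Npc2 were the members lower in both.

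**Figure D4:**
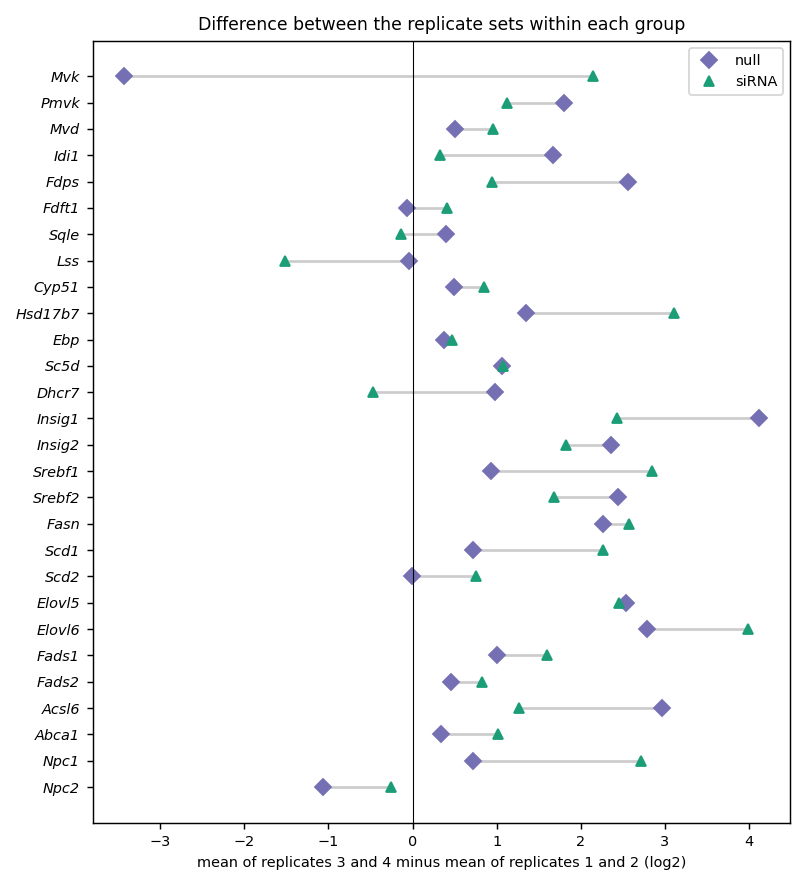
Mean of replicates 3 and 4 minus mean of replicates 1 and 2 on the log2 scale (x axis) for the 28 members with every value (y axis), in null (diamonds) and siRNA (triangles). Of the 28 members, 21 lie above 0 in both groups, and Mvk lies at -3.43 in null and 2.15 in siRNA.

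Mvk was the only member whose gap between null and siRNA differed between the replicate sets by the test of that difference. The change of the gap from replicates 1 and 2 to replicates 3 and 4 was -5.57 ± 0.72 (SE), adjusted p = 0.00214, among 28 members tested, where 4.39% of all probes were called. Null and siRNA differed by -0.05 in replicates 1 and 2 and by -5.62 in replicates 3 and 4. The next members by p were Hsd17b7, whose gap changed by -1.75 ± 0.58 (adjusted p = 0.118), and Scd1, whose gap changed by -1.55 ± 0.54 (adjusted p = 0.135). Each group and set is 1 pair of consecutive samples, so a property of that pair cannot be told apart from an effect in the cells. Mvk has 1 probe.

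**Figure D5:**
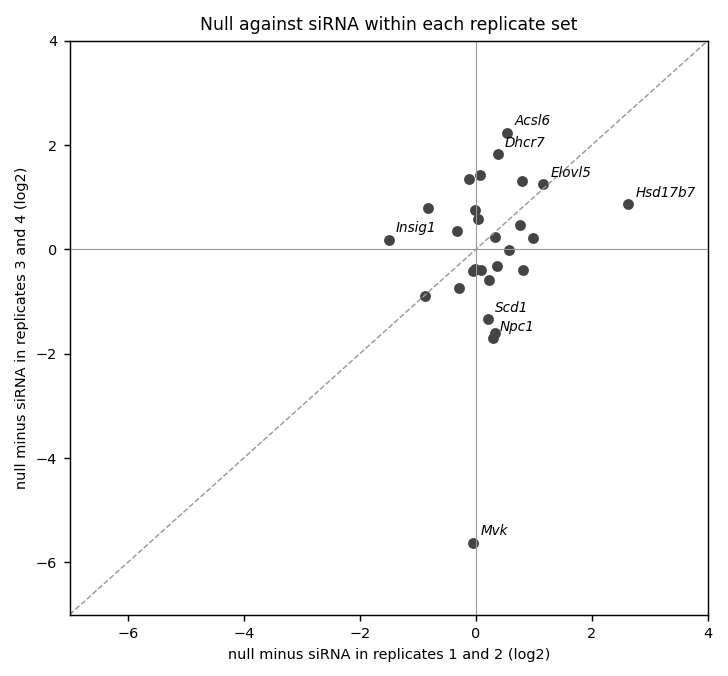
Null minus siRNA on the log2 scale in replicates 1 and 2 (x axis) and in replicates 3 and 4 (y axis) for 28 members, with the line of equal values dashed. Mvk lies apart from the others at -0.05 and -5.62, Hsd17b7 lies at 2.63 and 0.87, and Elovl5 lies near the line at 1.16 and 1.25.

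The neighbouring pathway genes, taken from 4 further lists, also held few calls against wild type. Of 10 tested sterol genes outside the list, none changed against wild type. Of 25 further fatty acid genes, 2 were called higher in siRNA than in wild type, in the fit with the set term. They were Me1, which supplies NADPH (1.67 ± 0.43 SE, adjusted p = 0.037), and Hsd17b12, an enzyme of chain elongation (2.02 ± 0.50, adjusted p = 0.0316). Me1 read 5.34, 4.67 and 5.66 in wild type and 3.65, 3.55, 6.56 and 6.71 in siRNA. Its plain group mean was thus not higher in siRNA (5.12) than in wild type (5.22). Among 19 lipid uptake and export genes, Abcg4, a sterol exporter of the brain, fell by 1.87 ± 0.44 in siRNA (adjusted p = 0.0264). Among 19 fatty acid oxidation genes, Slc25a20, the mitochondrial acylcarnitine carrier, rose by 2.17 ± 0.54 in siRNA with the set term (adjusted p = 0.0318). It read 1.01, -0.57 and 0.87 in wild type and -0.15, 0.49, 2.08 and 2.56 in siRNA, where replicates 1 and 2 lay within the wild-type range. None of these 4 lists held a call in null against wild type, where 0.585% of all probes were called. In siRNA against wild type the calls were 8.0% of fatty acid, 5.26% of uptake and export and 5.26% of oxidation genes, beside 7.37% of all probes.

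Between null and siRNA, 8 genes of the 4 lists were higher in null and none lower, where 3.60% of all probes were called higher and 2.27% lower. The 5 with the smallest p were Hsd17b4 (1.63 ± 0.32, adjusted p = 0.0146), Decr1 (1.49 ± 0.31, adjusted p = 0.0187) and Acadm (1.72 ± 0.36, adjusted p = 0.0197), enzymes of fatty acid oxidation, Gpam (1.78 ± 0.36, adjusted p = 0.0181), which starts glycerolipid synthesis, and Acsbg1 (1.60 ± 0.33, adjusted p = 0.0187), an acyl-CoA synthetase of glia. With array pairs as a random block none of these genes passed in any group comparison. The oxidation list held 3 of 19 calls there (15.8%, all higher in null) beside the 5.87% of all probes, with a list median of 0.28.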

How the data were processed

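RNA of cultured mouse astrocytes was measured on spotted oligonucleotide arrays, with 20 ug of total RNA per sample labelled with Cy3 or Cy5, per the labels' protocols. The authors deposited 1 table of log2 values per probe and sample, in which every column has a median of 0; scanning, background correction, filtering and normalization were not given in the sources used here. For wild-type replicate 5 the authors deposited values taken here as a score of unknown quantity (SD 0.476), since they follow no other column, and these enter only the alternative with all 14 columns. How far signals stood above background is unknown, and precision is limited by the number of arrays. Probe symbols came from the platform's annotation table: 18179 probes had 1 symbol, 87 several and 15334 none here.

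The members and the gene lists were chosen with earlier results of these data known. For each gene the probe with most values over 11 samples was used, ties going to the highest mean. Probes with at least 2 values per group and 2 residual degrees of freedom were fitted with limma 3.58.1 in R 4.3.3 (lmFit, eBayes) on group, dye and replicate set (replicates 1 and 2 against 3 and above), tested two-sided and called at a Benjamini-Hochberg adjusted p under 0.05 over all probes of a comparison (20341, 20324 and 20347). The fit was tested on simulated data with independent noise per sample and a set shift common to all groups. Such data lack the likeness of consecutive samples seen here (consensus correlation 0.467). That test therefore cannot show how many calls are false in these data. Genes named with every sample's value were the called members, filled up to 5 per comparison by p; called genes of the neighbouring lists were named, at most 5 per comparison. The test of the replicate set by group interaction and the averaging of consecutive replicates were chosen after seeing the data.

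Same-numbered samples of different groups deviated together (r = 0.121 to 0.647 across 14243 probes, every pair above 0.1). They also share dye and replicate set, and samples of different numbers were not compared. These correlations therefore cannot show that the numbers pair the samples. The replicate number was used as a block in an alternative fit only, and that block contains the set and dye terms. Promoters came from RefSeq (GRCm38.p6) and were found for 30 of the 37 symbols. Python 3.11.15 was used for summaries.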

Additional observations from a re-analysis of the deposited data

Results flagged for a closer look

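Acaca, which makes malonyl-CoA for fatty acid synthesis, read -0.88 in siRNA replicate 2, while the other 3 siRNA samples read -1.39, -1.38 and -1.38. The gap to the nearest sample took 0.983 of the range of the group, above Dixon's critical value for 4 samples. Among 59 groups of 4 values examined in the members, chance alone gives about 1 such sample in 20 groups.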

How the results depend on the processing

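Counts are given in the order null and then siRNA, each against wild type, and null against siRNA. The member counts were 1, 3 and 1 and the probe counts 119, 1498 and 1194. Without the set term, members were 0, 0 and 0 and probes 0, 66 and 75, and Elovl6 turned to -0.24 in null and -0.45 in siRNA against wild type. With the replicate number as a block, members were 1, 4 and 2 and probes 377, 1949 and 2170; the block changed no other call of a named member than those of Elovl5 and Npc1. Array pairs as a random block gave 0, 0 and 0 members and 1, 204 and 106 probes, and averaged pairs 0 members, 0 probes in each, and 5 members between the sets, where 16.7% of all probes were called. All 14 columns gave 0, 1 and 0 members and 1, 776 and 160 probes. Replicates 3 and above alone gave 3, 1 and 3 members and 877, 1769 and 1893 probes. Scale normalization gave 1, 1 and 2 members and 29, 570 and 776 probes, and moved the median of all probes between null and siRNA from 0.11 to 0.23. Array weights gave 0, 3 and 2 members and 21, 2031 and 2775 probes; quantile normalization gave 308 probes in the first comparison. Probes measured in all 11 samples gave 73 probes in the first and 2 members in the last comparison, as did probes with a mean above 0 for the members. An unadjusted p with 1.5-fold gave 10, 6 and 8 members and 3464, 4752 and 5043 probes. The mean of all probes of a gene gave 0, 1 and 1 members; the call left in siRNA was Insig1.

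Leaving out 1 sample gave 0 to 221, 225 to 1589 and 297 to 1832 probes, and 0 to 1, 1 to 3 and 0 to 3 members. The count of 0 probes came without null replicate 4, 225 without siRNA replicate 4 and 297 without null replicate 4; the 3 members between null and siRNA came without wild-type replicate 3 or 6. Between the sets the count ran from 12 to 17 members, the lowest without siRNA replicate 1. Where a call was lost the cause was not tested.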
